A study of Mus musculus with 6 samples.

Results

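The genes described here are the enzymes of the heme pathway in the mouse retina, with Alas2 as the gene the account turns on. The members were taken by symbol from the table of gene counts: Alas1, Alas2, Alad, Uros, Urod, Cpox, Ppox, Fech and Hmox1, which are 9 of its 24062 genes. Alas2 was chosen from its difference between the same groups in an earlier look at these counts, and the other 8 genes were added because they belong to the pathway. The differences between the groups in these 9 genes are therefore given as a description, and where a count of them past the test across all genes is given, nothing is read from it.

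RNA was sequenced from whole retinae at postnatal day 21 (P21), 3 of each genotype, from mice of the C57BL/6 strain by the labels and C57BL/6N by the methods of the study. The control group, Rb1/p107 DKO (below DKO), carried Chx10-Cre, Rb1 lox/lox and p107-/-, and these retinae develop retinoblastoma. The other group, Rb1/p107/Hells TKO (below TKO), carried the same alleles plus Hells lox/lox, so that both groups lack p107 in every cell and lose Rb1 wherever Cre is active. Hells encodes a chromatin remodeler of the SNF2 family, and the comparison asks which transcripts differ when it is lost together with the retinoblastoma proteins. Chx10-Cre acts in retinal progenitors in a mosaic pattern, so each retina also holds cells that were never recombined, and no retina without these deletions entered the comparison.

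Heme is an iron-holding ring that cytochromes, catalase, nitric oxide synthases and soluble guanylate cyclase need to work. Its synthesis starts in mitochondria, where 5-aminolevulinate synthase joins glycine and succinyl-CoA. ALAS1, the housekeeping form of that enzyme, is made in most cells and is repressed by heme, whereas ALAS2 is the form of developing red blood cells. The middle steps run in the cytosol, the last ones run in mitochondria again, and heme oxygenase breaks the product down.

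ALAS2 is also the enzyme of the pathway whose mRNA carries an iron-responsive element, a hairpin in the 5′ untranslated region (UTR) to which iron regulatory proteins bind when iron is scarce. A search of annotated 5′ UTRs (build GRCm38) for the letters of this hairpin, which are an unpaired C, 5 pairing bases, the loop CAGTGN or CAGAGN and 5 bases that pair back (G-T pairs allowed), found it in 69 of 20597 protein-coding genes, or 0.335%. Among the 9 members it was present in Alas2 alone. In a list of iron handling genes it was present in 4 of the 23 genes with an annotated 5′ UTR, and in 27 other genes of heme synthesis, transport and turnover it was not found. The hairpins of Alas2 and 3 of these iron genes are shown because they tie Alas2 to the genes described further on, each 5′ to 3′ on the gene's own strand with flanking bases, and with the loop in capitals.
Alas2: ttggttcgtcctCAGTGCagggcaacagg
Fth1: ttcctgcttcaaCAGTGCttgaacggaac
Ftl1: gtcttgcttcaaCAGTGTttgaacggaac
Slc40a1: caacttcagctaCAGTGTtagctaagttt

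The Alas2 element lay at chrX:150547464-150547480 on the plus strand, inside the first 126 bases of the transcript, which are its 5′ UTR, and its stem needed 1 G-T pair. Fth1 (ferritin heavy chain, chr19:9982738-9982754, plus strand) and Ftl1 (ferritin light chain, chr7:45459785-45459801, minus strand) make up the iron store of the cell. Slc40a1 encodes the iron exporter ferroportin (chr1:45925471-45925487, minus strand). The loops of Alas2 and Fth1 had the same letters, and those of Ftl1 and Slc40a1 ended in T. A match of letters says that the pattern is present and nothing about its use in these retinae.

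The 208 bases before the annotated start of Alas2 are shown for the same reason, from the promoter sequences of RefSeq on build GRCm38.p6 (chrX:150547167-150547374, plus strand), with a match to a GATA motif in capitals.
Alas2 upstream: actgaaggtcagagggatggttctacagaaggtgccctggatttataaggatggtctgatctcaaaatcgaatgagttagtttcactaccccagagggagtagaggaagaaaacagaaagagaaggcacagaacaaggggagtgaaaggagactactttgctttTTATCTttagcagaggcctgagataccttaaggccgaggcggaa

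Promoters of 7 of the 9 members were matched in those sequences, each spanning 250 bases before to 50 after a start site, and Fech and Hmox1 were not matched. The GATA motif, AGATAA or its variant TGATAA on either strand, occurred once in the Alas2 promoter, 86 bases before the RefSeq start, once in 1 of the Uros promoters and 2 times in that of Cpox. They occurred in 18.6% of all 32851 promoters. The E-box CACGTG, present in 7.15% of all promoters, occurred in those of Alad and Urod and in 1 of the Uros promoters. No promoter of a member held TAATCC, the CRX/OTX motif of photoreceptor genes, which occurred in 7.06% of all promoters, nor the E2F motif searched (TTTCGCGC, TTTGGCGC, TTTCCCGC or TTTGCCGC), which occurred in 2.26%, nor the antioxidant motif TGACNNNGC or the MAF motif beside it, which together occurred in 12.4%.

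The 6 libraries held 10343907 to 14203098 counts. Hells, the gene removed in TKO, had normalized counts of 60.8, 68.4 and 83.4 in the TKO retinae and 678, 523 and 395 in the DKO retinae, in the direction of the labels. These counts cover the whole gene and not the deleted exon alone, and dividing cell genes were lower in TKO as well. Rb1, targeted by Cre in both groups, had normalized counts of 814, 746 and 682 in TKO and of 617, 583 and 572 in DKO. These did not overlap (log2 fold change 0.34, edgeR adjusted p = 0.0388), and the part of Rb1 in other differences was not tested. Rbl1, the p107 gene, had a log2 fold change of 0.13 (edgeR adjusted p = 0.839) with overlapping groups. The summed rod markers were higher in each TKO than in each DKO retina (34262 to 68327 against 11775 to 22242 CPM, counts per 1000000 counts of a TMM-scaled library, with 16 of 16 genes past the test), whereas the summed dividing cell genes were lower (159 to 364 against 707 to 1327, 10 of 10). Summed microglia and macrophage markers were also lower in TKO (106.8 to 202 against 269 to 380, 7 of 12). Summed lens genes were higher in TKO (60.5, 350 and 55.4 against 13.3, 13.8 and 12.7 CPM, 6 of 14 genes past the test), and TKO replicate 2 stood apart in them. Of all genes tested, 16.6% passed the same test. In whole tissue, fewer cells of a type and less RNA per cell cannot be told apart. The labels name the libraries as 3 retinae per genotype and do not say whether each came from a separate animal. Both sexes were read in each group, so the retinae of a group were not all from the same animal. The p-values measure the spread between these samples only.

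Alas2 was more abundant in every TKO than in every DKO retina. Its raw counts were 35, 41 and 32 in TKO and 16, 10 and 14 in DKO. Scaled for library size and composition (TMM), these came to normalized counts of 40.1, 43.2 and 39.3 in TKO and of 15.1, 8.75 and 12.1 in DKO. The groups did not overlap. Relative to their level the TKO retinae lay closer together than the DKO retinae, but neither spread was wider than counting error, so nothing is read from this. The mean was 40.9 ± 2.04 (SD, n = 3) against 11.97 ± 3.15 (SD, n = 3), a ratio of 3.41, and the lowest TKO retina was 2.61 times the highest DKO retina. The fitted log2 fold change, TKO minus DKO, was 1.77 ± 0.30 (SE).

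These are small counts, and counting error alone is wide. An exact Poisson 95% interval of the normalized count ran from 26.9 to 55.4 in the lowest TKO retina and from 8.61 to 24.5 in the highest DKO retina. The spread between replicates was no wider than counting error, with a chi-square per degree of freedom of 0.0914 within TKO and 0.922 within DKO. Such intervals cover counting error only.

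**Figure D1:**
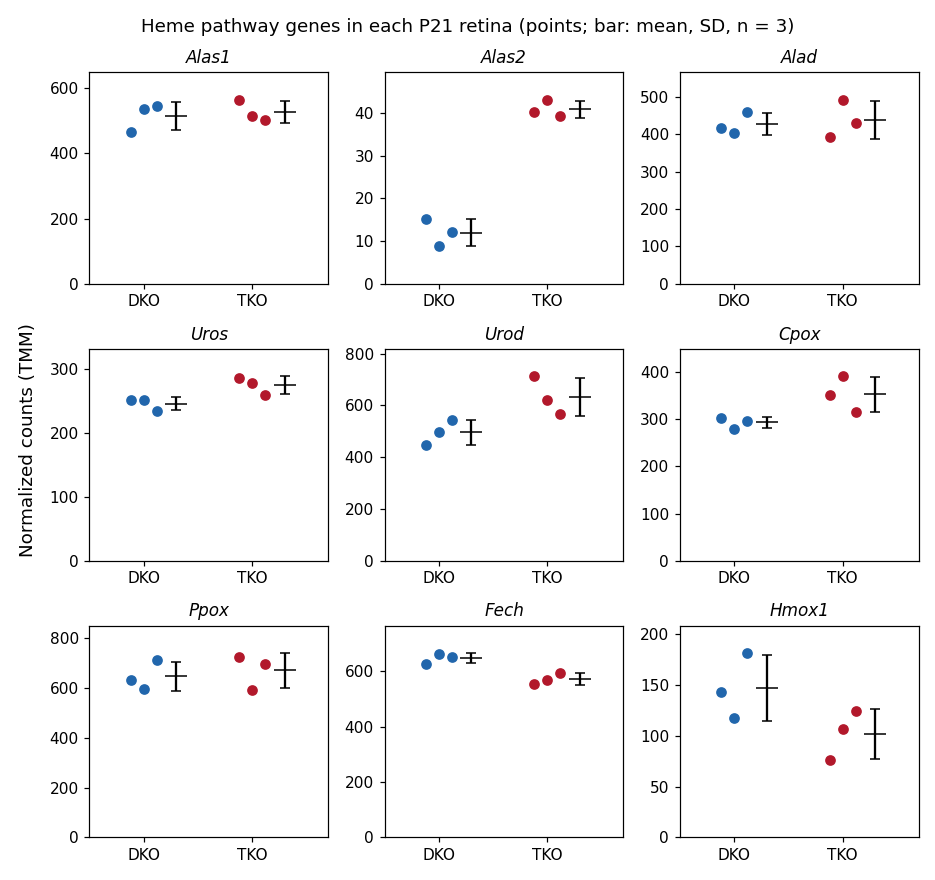
Normalized counts (TMM, vertical axes, each starting at 0) of the 9 heme pathway genes in each P21 retina. Points are single retinae in DKO (blue) and TKO (red), and the black bar beside them is the mean with the SD of 3 retinae. The Alas2 points lie at 8.75 to 15.1 in DKO and at 39.3 to 43.2 in TKO, whereas the Alas1 points of the groups overlap.

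Alas1, the form used by most cells, had normalized counts of 565, 514 and 503 in TKO and of 466, 535 and 546 in DKO, with a log2 fold change of 0.03 ± 0.10 (SE). The groups overlapped. Alas2 counts made up 6.63%, 7.75% and 7.24% of the Alas1 and Alas2 counts together in TKO, and 3.13%, 1.61% and 2.17% in DKO. The exact Clopper-Pearson 95% intervals were 4.66% to 9.10%, 5.62% to 10.4% and 5.00% to 10.1% in TKO, and 1.80% to 5.04%, 0.775% to 2.94% and 1.19% to 3.61% in DKO. Per kilobase of exon, Alas1 was 4.63 to 5.48 times Alas2 in TKO and 12.04 to 23.8 times in DKO. The Alas1 transcript was thus the more abundant in all 6 retinae, and the enzymes themselves were not measured. The size of the ratio depends on the length used. On the log2 scale it was 4.07 between the DKO means, and 4.69 with the longest annotated transcript.

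Alas2 (X:150547375-150570638, plus strand) shares exon sequence with genes on the other strand, and while the libraries were made with a stranded kit, whether reads were counted by strand is not given in the sources used here. Apex2, which encodes a DNA repair endonuclease, covers 311 of its exon bases, or 12.9%, and the microRNA gene Mir3620, listed at 0 counts in every library, covers 61. Apex2 had normalized counts of 157, 168 and 128 in TKO and of 105, 110 and 117 in DKO (log2 fold change 0.44, adjusted p = 0.0913), which do not overlap either. Reads of Apex2 counted to Alas2 and reads of Alas2 counted to Apex2 cannot be told apart in these counts, and the part of the overlap in the Alas2 difference was not tested. The same limit holds for Ppox, where exons of B4galt3, a galactosyltransferase gene, cover 17.5%, for Alas1, where an antisense gene covers 7.53%, and for Cpox, where Gpr15 covers 3.06%.

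The 3 cytosolic enzymes that follow are those of Alad, Uros and Urod. Alad encodes the dehydratase that joins 5-aminolevulinate molecules to porphobilinogen, and had normalized counts of 393, 493 and 430 in TKO and of 416, 403 and 459 in DKO. The groups overlapped, and the log2 fold change was 0.04 ± 0.11 (SE). Uros encodes the synthase that closes the ring to uroporphyrinogen III. Its normalized counts were 287, 279 and 260 in TKO and 252, 251 and 235 in DKO, a log2 fold change of 0.16 ± 0.11 (SE) with every TKO retina above every DKO retina by a small margin. Urod, which encodes the decarboxylase that makes coproporphyrinogen, differed more. Its normalized counts were 712, 619 and 568 in TKO and 446, 498 and 543 in DKO, a log2 fold change of 0.35 ± 0.12 (SE), again without overlap.

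Cpox, Ppox and Fech, of the mitochondrial end of the pathway, had small log2 fold changes of either sign, and none passed the test across all genes. Cpox encodes the oxidase that makes protoporphyrinogen, and had normalized counts of 352, 392 and 317 in TKO and of 304, 279 and 297 in DKO. That is a log2 fold change of 0.27 ± 0.11 (SE), and the groups did not overlap. Ppox encodes the oxidase of the next step, and its normalized counts of 724, 592 and 695 in TKO and of 632, 596 and 711 in DKO overlapped (log2 fold change 0.05 ± 0.11, SE). Fech encodes ferrochelatase, which puts the iron into the ring. It was lower in TKO, with normalized counts of 554, 569 and 595 against 629, 664 and 653 in DKO, no overlap, and a log2 fold change of -0.18 ± 0.08 (SE).

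Hmox1, the inducible heme oxygenase that stress and heme itself bring up, was the member with the lowest log2 fold change, -0.53 ± 0.23 (SE). Its normalized counts were 75.7, 106 and 124 in TKO and 143, 117 and 181 in DKO. TKO replicate 3 lay above DKO replicate 2, so the groups overlapped, and the replicates spread more widely than counting error (chi-square per degree of freedom of 4.99 within TKO and 8.09 within DKO). Hmox2, the heme oxygenase that is made without induction, had overlapping groups at 827, 813 and 884 in TKO and 802, 910 and 841 in DKO (log2 fold change -0.02, adjusted p = 0.904).

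**Figure D2:**
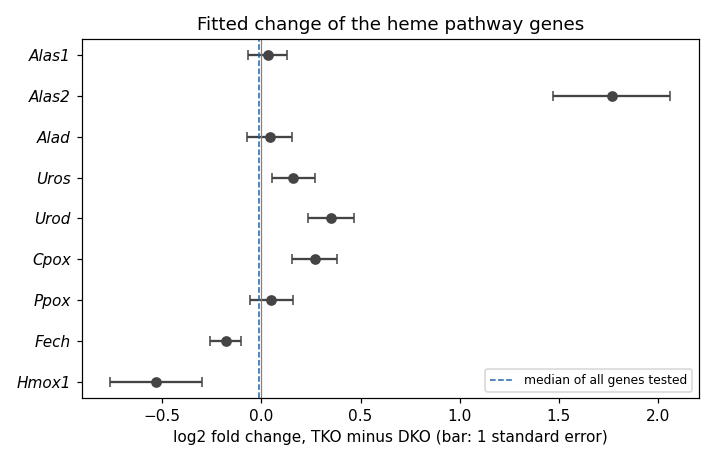
Fitted log2 fold change (horizontal axis, TKO minus DKO) of the 9 heme pathway genes, with 1 standard error on each side. The dashed line is the median of all genes tested, -0.01, and Alas2 stands at 1.77 while the other 8 genes lie between -0.53 and 0.35.

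All 9 members were kept by the filter on low counts. By the edgeR quasi-likelihood test across 16904 genes, 1 of the 9, Alas2, had an adjusted p of at most 0.05 and also met the 3 criteria of the study (that p, a fold change of 1 or more on the log2 scale in either direction, and 10 or more normalized counts on average). Of all genes tested, 16.6% passed the adjusted p, 7.35% being higher and 9.2% lower in TKO, and 1.97% met the 3 criteria in the higher direction. Since this contrast chose Alas2, nothing is read from that count. In 5 of the 9 members every retina of one group lay above every retina of the other, which was so in 38.6% of all genes tested. The log2 fold change was above 0 in 7 members and below 0 in Fech and Hmox1, and their median of 0.05 lay close to the median of all genes, -0.01. When libraries were scaled by total counts alone the median of all genes was -0.17 and that of the members -0.11, and Alas1, Alad and Ppox then lay below 0.

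Between genes, levels were compared per kilobase of annotated exon, as CPM. In DKO the order was Alad (18.0), Urod (15.1), Ppox (11.3), Hmox1 (6.65), Alas1 (6.60), Uros (5.44), Fech (3.70), Cpox (3.48) and Alas2 (0.394). Neighbours in that order overlapped between retinae for Hmox1 and Alas1 and for Fech and Cpox, and the other neighbours did not. In TKO the order was Urod (19.3), Alad (18.5), Ppox (11.7), Alas1 (6.75), Uros (6.09), Hmox1 (4.60), Cpox (4.19), Fech (3.27) and Alas2 (1.34), with overlaps for Urod and Alad and for Hmox1 and Cpox. Alas2 was thus the lowest of the 9 in both groups, and Hmox1 stood 2 places lower in TKO than in DKO. With the longest annotated transcript as the length, Urod came first and Alas2 last in both groups, and Hmox1 was second to last.

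**Figure D3:**
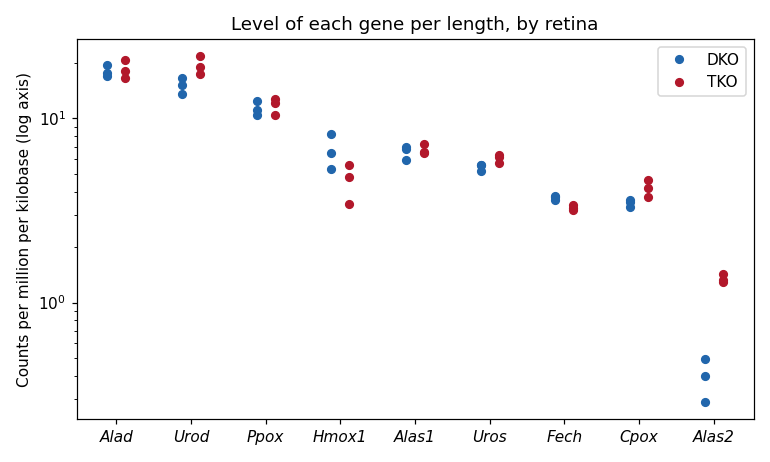
Level of each gene in CPM per kilobase of exon (vertical log axis), in order of the DKO mean. Points are single retinae in DKO (blue) and TKO (red), and the Alas2 points lie below those of every other member, at 0.288 to 0.495 in DKO and at 1.29 to 1.42 in TKO.

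Rod, lens, microglia and dividing cell genes separated the groups as Alas2 did, and their part in the Alas2 difference was not tested. In TKO, the summed rod markers were 68327, 58791 and 34262 CPM in replicates 1, 2 and 3, while Alas2 was 40.1, 43.2 and 39.3. In DKO, the rod sum was 12122, 11775 and 22242, while Alas2 was 15.1, 8.75 and 12.1. Since the spread of Alas2 within the groups was no wider than counting error, no order is read from these values. Over the 6 libraries the median Pearson r of Alas2 with the 16 rod markers was 0.90, and on deviations from the group means it was 0.12, a description over 6 points that share libraries and group differences. Rods did not stand apart in this. The median r was -0.89 with dividing cell genes, -0.88 with microglia and macrophage markers and 0.81 with lens genes. By deviation these were -0.06, -0.23 and 0.24. Among Muller glia markers r by level ran from -0.83 for Apoe to 0.98 for Glul. The sum of endothelial and pericyte markers overlapped between the groups, at 457 to 573 CPM in TKO and 455 to 590 in DKO, and was made up mostly of Kdr, the 1 gene of the 8 with a log2 fold change below 0 (-0.21, adjusted p = 0.333). The other 7 lay above 0, with a median of 0.38 over the list, and Pecam1, a surface protein of endothelial cells, rose (0.87, adjusted p = 0.0336). The median r of these markers with Alas2 was 0.70 by level and 0.44 by deviation, and their part was not tested either. Lens genes were highest in TKO replicate 2, and without that retina the log2 fold change of Alas2 was 1.72. This does not take the lens difference out, since the lens sums of TKO replicates 1 and 3 were 60.5 and 55.4 CPM. In DKO they were 13.3, 13.8 and 12.7.

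**Figure D4:**
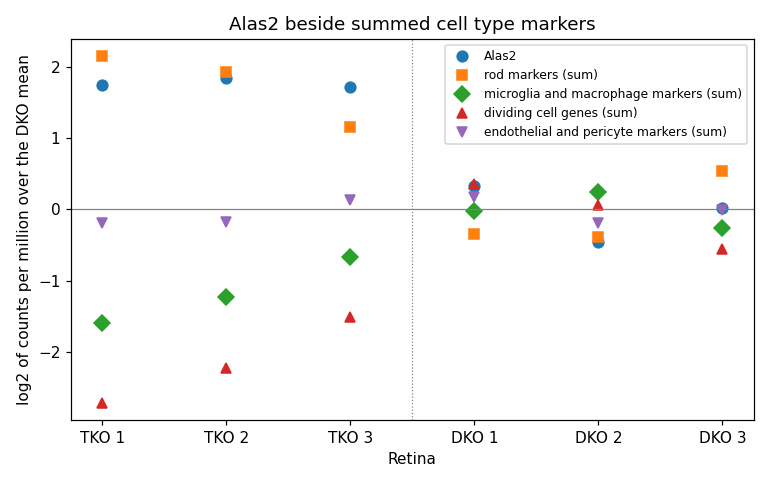
Alas2 and summed marker genes in each retina, as the log2 ratio of CPM to the DKO mean (vertical axis). Alas2 lies at 1.71 to 1.85 in the 3 TKO retinae, while the rod sum spans 1.16 to 2.15 and the microglia and dividing cell sums lie below 0 in all of them.

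Both sexes were present in both groups by the counts of Xist and of Y-linked genes, with TKO replicate 1 and DKO replicates 1 and 2 read as male. Alas2 is X-linked, and its normalized count was 40.1 in the male and 43.2 and 39.3 in the female TKO retinae, and 15.1 and 8.75 in the male and 12.1 in the female DKO retina. The values of the sexes thus lay close together in TKO and interleaved in DKO, and with sex as a term in the fit the log2 fold change of Alas2 was 1.75 and that of Hmox1 was -0.71.

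Red blood cells were looked for through their own genes, since Alas2 is their form of the enzyme. The 8 haemoglobin genes are listed at 0 counts in every library, and whether such reads were removed before counting is not given in the sources used here, so these rows give no measure of blood. Of the other red cell genes, Kel had no count, Rhag had 1 count in a single library, and Slc4a1 and Gata1, which code for the anion exchanger band 3 and the master regulator of the lineage, had normalized counts of at most 5.65 in any retina. Klf1, another factor of the lineage, was at 2.10 to 2.45 in TKO and 5.25 to 7.77 in DKO, a level of only a few reads (log2 fold change -1.40, adjusted p = 0.104). Of the 9 genes of this list with enough counts to test, Bpgm rose (log2 fold change 0.41 ± 0.10, SE, adjusted p = 0.0291), Tal1 fell and 7 did not pass. Bpgm encodes bisphosphoglycerate mutase, and had normalized counts of 1264 to 1529 in TKO and of 939 to 1107 in DKO.

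Tal1 encodes a basic helix-loop-helix factor of blood and endothelial development that is also used in parts of the nervous system. Its normalized counts were 10.3, 6.31 and 19.6 in TKO and 258, 227 and 118 in DKO. The groups lay far apart, with a log2 fold change of -4.07 ± 0.43 (SE) and an adjusted p of 0.00473. Epor, the erythropoietin receptor gene, had a log2 fold change of 0.43 (adjusted p = 0.445), and Tfr2, a transferrin receptor of red cell precursors and liver, one of -0.34 (adjusted p = 0.187). Passing genes made up 22.2% of this list, against 16.6% of all genes tested, and 1 gene in place of 2 passed without any 1 of TKO replicates 1 and 2 and DKO replicates 1 and 2.

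The other genes of heme synthesis, transport and turnover were measured in 26 rows, of which 4 rose, 1 fell and 21 did not pass the test. Slc46a1, an intestinal folate transporter that also carries heme, rose by 0.42 ± 0.11 (log2 fold change, SE) with an adjusted p of 0.0327. Clpx, a mitochondrial unfoldase that activates and turns over 5-aminolevulinate synthase, rose with normalized counts of 795, 853 and 693 in TKO and 576, 605 and 622 in DKO (log2 fold change 0.38, adjusted p = 0.0326). Abcb10, a mitochondrial transporter needed for the early steps of the pathway, rose by 0.37 (adjusted p = 0.0495), and Pgrmc2, a heme chaperone, by 0.29 (adjusted p = 0.0458).

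Slc25a39, a mitochondrial carrier that brings in glutathione, was the 1 gene of that list that fell, with normalized counts of 458, 537 and 630 in TKO and 760, 760 and 713 in DKO (log2 fold change -0.46, adjusted p = 0.0339). The 2 most abundant genes of the list were Pgrmc1, a heme-binding membrane protein gene (log2 fold change -0.16, adjusted p = 0.228), and Slc48a1, which encodes a heme transporter of endosomes (0.25, adjusted p = 0.0816). Blvrb, which encodes a biliverdin reductase and acts after heme oxygenase, had a log2 fold change of -0.83 (adjusted p = 0.0817). The 5 passing genes were 19.2% of the list against 16.6% of all genes, and the median of the list, -0.03, was near that of all genes. The direction of these calls depended on the scaling and filter, with 0 higher and 4 lower with total counts alone, and 2 higher and 2 lower with upper-quartile scaling and without a filter. Without TKO replicate 1, TKO replicate 2, DKO replicate 1 or DKO replicate 2 the count by edgeR was 0, with 7 to 9 genes at an unadjusted p under 0.05.

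Of 24 iron handling genes, 1 rose, 2 fell and 21 did not pass. Fbxl5, the iron-sensing ubiquitin ligase subunit that removes iron regulatory protein 2, rose from normalized counts of 2127 to 2408 in DKO to 2899 to 3863 in TKO (log2 fold change 0.57 ± 0.11, SE, adjusted p = 0.0149). Bmp6, a ligand that reports iron stores to the hepcidin system in liver, fell. Its normalized counts were 20.6, 21.0 and 23.3 in TKO and 49.9, 61.3 and 44.0 in DKO (log2 fold change -1.25 ± 0.25, SE, adjusted p = 0.0144). Cp encodes ceruloplasmin, the ferroxidase that works with ferroportin in iron export, and fell from 6312 to 10429 in DKO to 3410 to 5344 in TKO (log2 fold change -0.89, adjusted p = 0.0270). Passing genes made up 12.5% of the list, against 16.6% of all genes tested. Without TKO replicate 2 or DKO replicate 1 no gene passed by edgeR, and 6 and 8 were at an unadjusted p under 0.05. Without DKO replicate 2 the count was 1, and without TKO replicate 3 it was 5.

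The 3 iron genes whose hairpins are shown beside that of Alas2 did not pass the test. Fth1 had normalized counts of 3996 to 4520 in TKO and of 3219 to 3881 in DKO, without overlap (log2 fold change 0.24, adjusted p = 0.130). Ftl1 lay in the other direction, also without overlap, at 3392 to 4642 in TKO and 5012 to 5597 in DKO (-0.38, adjusted p = 0.0723). Slc40a1 had a log2 fold change of -0.09 (adjusted p = 0.854) with overlapping groups. Tfrc, the transferrin receptor through which cells take up iron, had one of 0.41 (adjusted p = 0.118) with overlapping groups.

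Hmox1 is a target of the stress factor NRF2, and 12 genes of that system were measured. G6pdx, the X-linked gene of glucose-6-phosphate dehydrogenase, rose (log2 fold change 0.34 ± 0.08, SE, adjusted p = 0.0279) and Txnrd1, thioredoxin reductase 1, fell (-0.53 ± 0.10, SE, adjusted p = 0.0123). The remaining 10 did not pass, and 16.7% of the list passed against 16.6% of all genes. Nfe2l2, which encodes NRF2 itself, had a log2 fold change of -0.27 (adjusted p = 0.0942), and Keap1, its inhibitor, one of 0.07 (adjusted p = 0.657). Srxn1, sulfiredoxin, was the most abundant of the 12 and did not pass (0.22, adjusted p = 0.104). Txnrd1 had normalized counts of 781, 941 and 1000 in TKO and of 1322, 1279 and 1337 in DKO, without overlap. Without TKO replicate 2, DKO replicate 1 or DKO replicate 2 no gene of the list passed by edgeR, with 4 to 6 at an unadjusted p under 0.05, without TKO replicate 1 the count was 1, and without TKO replicate 3 it was 4.

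Among 6 tested regulators of Alas1, Ppargc1a rose and 5 did not pass, a share of 16.7% against 16.6% of all genes. Ppargc1a encodes PGC-1alpha, the coactivator of mitochondrial genes that induces Alas1 in fasted liver, and had normalized counts of 893, 857 and 685 in TKO and of 542, 519 and 530 in DKO (log2 fold change 0.61 ± 0.11, SE, adjusted p = 0.0109). The log2 fold change of Alas1 in the same retinae was 0.03. Nr1d1 and Nr1d2, the clock repressors REV-ERBalpha and REV-ERBbeta, were the 2 most abundant and had log2 fold changes of -0.0043 (adjusted p = 0.976) and 0.24 (adjusted p = 0.101). Without TKO replicate 2 or DKO replicate 2 no regulator passed by edgeR, and 1 and 2 were at an unadjusted p under 0.05, whereas without TKO replicate 3 the count was 2.

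Of 20 genes whose proteins hold or serve heme, 2 rose, 1 fell and 17 did not pass. Those that passed made up 15% of the list, against 16.6% of all genes tested. With total counts alone 1 was higher and 3 were lower. Nos3, endothelial nitric oxide synthase, rose from normalized counts of 106 to 142 in DKO to 190 to 231 in TKO (log2 fold change 0.70 ± 0.16, SE, adjusted p = 0.0218). Por, the reductase that feeds electrons to cytochrome P450 enzymes and heme oxygenase, rose by 0.36 (adjusted p = 0.0463), and Cyp1b1, a cytochrome P450, fell by 0.81 (adjusted p = 0.0142) on the log2 scale. Gucy1a3 and Gucy1b3, the subunits of soluble guanylate cyclase, were the 2 most abundant of the list, with log2 fold changes of -0.09 (adjusted p = 0.568) and -0.03 (adjusted p = 0.818). Mitochondrial Cycs and Cyc1, the genes of cytochrome c and cytochrome c1, had log2 fold changes of 0.08 (adjusted p = 0.555) and 0.16 (adjusted p = 0.258). Without TKO replicate 2 no gene of the list passed by edgeR, with 4 at an unadjusted p under 0.05, and without TKO replicate 1, DKO replicate 1 or DKO replicate 2 the count was 1.

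**Figure D5:**
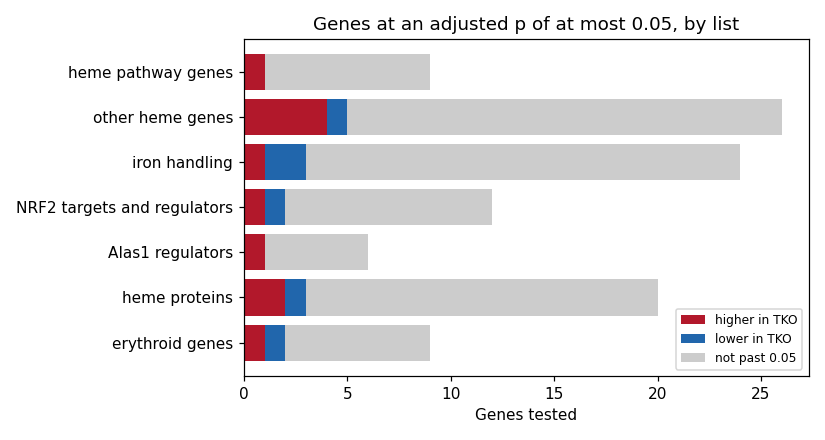
Number of genes tested in each list (horizontal axis) that were higher in TKO (red), lower in TKO (blue) or not past an adjusted p of 0.05 (grey). In the lists beside the heme pathway genes, 12.5% to 22.2% of the genes passed, against 16.6% of all genes tested.

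The genes whose levels followed Alas2 most closely over the 6 libraries were Fam126b (Pearson r 0.996 on the log2 scale), Bace1 (0.996), Slc7a8 (0.995), Traf3 (0.993) and Lrp2 (0.989), among 14975 genes compared. As many as 799 genes had an r of at least 0.9, since any gene that separates the groups with a small spread resembles Alas2 by this measure. Fam126b encodes a protein of the kinase complex that makes phosphatidylinositol 4-phosphate, Bace1 the beta-secretase, Slc7a8 an amino acid transporter, Traf3 a signalling adaptor and Lrp2 the endocytic receptor megalin. Their log2 fold changes were smaller than that of Alas2, at 0.36, 0.34, 0.66, 0.12 and 0.77. With Spearman's rank correlation 3 of the 5 stayed among the first 100 genes.

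When deviations from the group means were compared in place of levels, which takes the difference between the groups out, the closest 5 genes were Ankrd16 (r 0.994), Dnah5 (0.990), Nipsnap3b (0.987), Pdzd9 (0.986) and Gls2 (0.983). None of them was among the first 5 by level. Dnah5 and Pdzd9 had mean normalized counts of 10.6 and 11.3, and since the spread of Alas2 within groups was no wider than its counting error, an r on these 6 deviations describes little beyond counting noise. The other 8 members had a median r with Alas2 of 0.23 by level, over a range from -0.95 to 0.86, and of 0.07 by deviation.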

How the data were processed

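The authors deposited whole-number counts of reads per gene for 6 libraries, 3 TKO and 3 DKO retinae, from a stranded mRNA kit. The study's methods name STAR and HTSeq with GRCm38, whereas the submitters' processing notes name TopHat2, featureCounts and DESeq2, so the aligner and counter are uncertain, and the strand setting of the counting is not given in the sources used here. Genes with a sum under 10 counts were removed, which left 16904 of 24062. Libraries were scaled by TMM, and edgeR 4.0.16 (quasi-likelihood F test, R 4.3.3) compared TKO with DKO over all genes with Benjamini-Hochberg adjustment. Each standard error is the size of the log2 fold change over the root of the F statistic. A normalized count is the count over the TMM-scaled library size relative to the mean. A call needed an adjusted p no higher than 0.05, a log2 fold change of 1 or more in size and a mean of 10 or more normalized counts. The test was checked on simulated data. Libraries held 10343907 to 14203098 counts, and intervals cover counting error only.

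The members and the gene lists were chosen with earlier results of these data known. Named were all members and the targeted genes Hells, Rb1 and Rbl1. Also named were the genes closest to Alas2 and, in each other list, the 2 with the largest mean. So were the passing list genes whose log2 fold change was 1 or more in size. Other list genes, passing or not, were named after their values were seen, for their role or their test. Some list genes are counted but not reported here by name. Alternatives were DESeq2 1.42.0, other scalings and filters, robust dispersion, a replicate block, a sex term, other prior counts and leaving out each retina. Positions and exons are from GENCODE M21 on GRCm38, and promoters are from RefSeq. The main fit did not pair the retinae by replicate number. Same-numbered deviations from the group means correlated at 0.066, -0.055 and -0.23, which cannot show how the retinae were collected.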

Additional observations from a re-analysis of the deposited data

How the results depend on the processing

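The log2 fold change of Alas2 ranged from 1.58 to 1.96 over 18 alternatives. The signs of Uros, Urod, Cpox, Fech and Hmox1 were kept in all 18, and those of Alas1, Alad and Ppox changed in 4, 3 and 3, where the values were near 0. Total counts alone as the scaling moved the median of the members to -0.11, split the genes that passed into 778 higher and 2610 lower in place of 1243 and 1556, and split those that met the 3 criteria into 247 and 983 in place of 333 and 741. Total counts turned the other heme genes from 4 higher and 1 lower to 0 higher and 4 lower, and upper-quartile scaling and the lack of a filter each gave 2 and 2. Total counts alone also gave 6 iron handling genes in place of 3 and 1 erythroid gene in place of 2. DESeq2 gave 5 iron handling genes. Of the NRF2 genes, 4 passed in place of 2 with edgeR's own filter and 4 with 10 counts required in every library. That last filter left 3 erythroid genes to test, of which 1 passed. It removed Tal1 untested, whose raw counts in TKO were 9, 6 and 16.

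With the replicate number as a block, edgeR called 90 genes in place of 1074, 88 of them shared, and passed 106 in place of 2799. The numbers share no animal or batch in the labels. Under the block 0 genes passed in each of the 6 lists beside the members, 35 of whose 97 genes were at an unadjusted p under 0.05. Of the 9 members, Alas2 included, 0 then passed, with 3 at an unadjusted p under 0.05. DESeq2 passed 1 member, and 2 passed by edgeR with total counts alone, without TKO replicate 3 and with a sex term. Beside Alas2 these were Fech with total counts alone (adjusted p = 0.0394), Urod without TKO replicate 3 (0.0424) and Hmox1 with the sex term (0.0397).

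Leaving out 1 retina gave 471 to 1500 genes by the 3 criteria and 647 to 3590 by the adjusted p alone, with over 1.5 times fewer without TKO replicate 1 (700 and 1307), TKO replicate 2 (476 and 712), DKO replicate 1 (500 and 811) or DKO replicate 2 (471 and 647). The count of passing genes then ran from 0 to 7 for the other heme genes, from 0 to 5 for iron handling, from 0 to 4 for NRF2, from 0 to 2 for the Alas1 regulators, from 0 to 4 for the heme proteins and from 1 to 2 for the erythroid genes. The cause was not tested. Depth limits Alas2, at 10 to 41 counts a library.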

Other observations

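Some list genes had a value far from the others in a single retina, and the following examples were picked out after their values were seen. Trf, the gene of transferrin, the iron carrier of plasma, had normalized counts of 1942, 2545 and 7112 in DKO and 3148, 3909 and 2503 in TKO. Hccs, which encodes the lyase that attaches heme to cytochrome c, had 441, 446 and 774 in DKO and 352, 412 and 383 in TKO. Mb, the gene of myoglobin, had 164 in TKO replicate 2 and 3.68 to 9.17 in each of the other 5 retinae.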
